A study of Saccharomyces cerevisiae with 15 samples.

Results

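The small subunit of the yeast cytosolic ribosome is built from 1 ribosomal RNA and the proteins of the RPS genes. All genes of the deposited table whose name is RPS followed by a number, with or without a final A or B, were taken, which gave 56 of 5980 genes. They form 24 pairs of an A and a B copy and 8 genes with a single copy, and so encode 32 proteins. RNA sequencing covered 15 libraries of 5 Saccharomyces cerevisiae strains in the S288C background, 3 per strain. BY47419 was the parent and C0 the starting strain for making β-carotene. C3-06 and C5-63 were intermediate strains of the evolution that followed, and C7-143 was its final strain. All 5 strains carried the his3Δ1, leu2Δ0, met15Δ0 and ura3Δ0 alleles and expressed spCas9-NG, so the Cas9 protein was also present in BY47419. C0, C3-06, C5-63 and C7-143 in addition expressed HMG1, an enzyme of the mevalonate pathway, and CrtE, CrtYB and CrtI, the enzymes that lead from isoprenoid precursors to β-carotene. Cells were grown in rich medium with glucose to what the labels call exponential phase. The labels do not say whether replicates came from separate cultures or whether a strain was 1 clone, so p-values measure the spread between these libraries, which may be technical.

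The small subunit binds the messenger RNA and its head, body and platform together form the decoding centre, where codons are read. In yeast, transcription of ribosomal protein genes is carried by Rap1 with Fhl1 and its coactivator Ifh1, and by Sfp1, under the TORC1 and protein kinase A pathways that respond to nutrients. Ribosomal protein messages are known to be abundant in fast growing yeast and to fall in stress or starvation, while stress genes move the other way. Most of the genes have a second copy from an ancient duplication of the genome.

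The libraries held 16144808 to 21586409 reads in genes. Across each strain's 3 libraries, MET17 (the met15 locus) and URA3 had 0 to 1 reads. Summed CPM of 5 genes of mating type a were 257 to 1287, against 60.9 to 131 for 4 genes of mating type alpha. C3-06 replicate 1 stood apart from the other C3-06 libraries, and BY47419 replicate 2 from the other BY47419 libraries. Between libraries of 1 strain the chi-square of counts per degree of freedom was 73.2 to 102 for C3-06 replicate 1, against 13.4 between the other C3-06 libraries. It was 59.9 to 109 for BY47419 replicate 2, against 14.9 between the other BY47419 libraries. No pair of libraries agreed within sampling noise.

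The 56 small subunit genes took a larger share of the reads in each evolved strain than in C0 or BY47419. They made up 0.159% ± 0.0152 of reads in BY47419, 0.178% ± 0.0101 in C0, 1.13% ± 0.180 in C3-06, 1.56% ± 0.0918 in C5-63 and 2.29% ± 0.262 in C7-143 (SD, n = 3 each). Library by library, the share was 2.35%, 2.52% and 2.00% in C7-143, against 0.172%, 0.173% and 0.190% in C0. It was 0.933%, 1.29% and 1.17% in C3-06, where replicate 1 was the lowest. Every library of an evolved strain lay above every C0 library. In the same libraries 19 stress genes, such as CTT1, HSP12 and TPS1, took the opposite course. They held 8.90% ± 0.303 of reads in BY47419, 8.15% ± 0.399 in C0, 4.17% ± 1.01 in C3-06, 1.93% ± 0.265 in C5-63 and 1.02% ± 0.131 in C7-143. C3-06 replicate 1 had the highest stress share of its strain, 5.30%. The part of growth state in the results for the small subunit genes was not tested. All amounts are relative to the library, so more message of these genes and less of other messages cannot be told apart. The amount of RNA per cell cannot be told from them either.

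Levels were set on the RPKM scale, reads per kilobase of coding sequence and per library size, with library sizes scaled by TMM. On this scale the median small subunit gene stood at 776 in C7-143, at the 95.9 percentile of the tested genes, and at 46.8 in C0, at the 47.5 percentile. In C7-143 the levels were led by RPS26A, whose protein lines the exit of the mRNA channel, at 3244 ± 441. RPS31, which encodes a fusion of ubiquitin with a head protein, followed at 3047 ± 504, and RPS30A, for a protein close to the decoding centre, at 2979 ± 419 (SD, n = 3). These 3 differed by less than the spread between their libraries. In C0 the highest levels were those of RPS30A at 346 ± 10.7, RPS26A at 341 ± 5.55 and RPS14A, a platform protein gene, at 329 ± 17.8. The lowest levels belonged to members of pairs. In C7-143 these were RPS9A at 33.9 ± 2.35, RPS14B at 81.4 ± 8.27 and RPS22B at 123 ± 9.09. In C0 they were RPS9B at 9.10 ± 1.42, RPS14B at 10.9 ± 2.46 and RPS9A at 11.5 ± 2.08. RPS14B, whose splicing is known to be repressed by its own protein, was thus among the lowest in both strains.

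**Figure D1:**
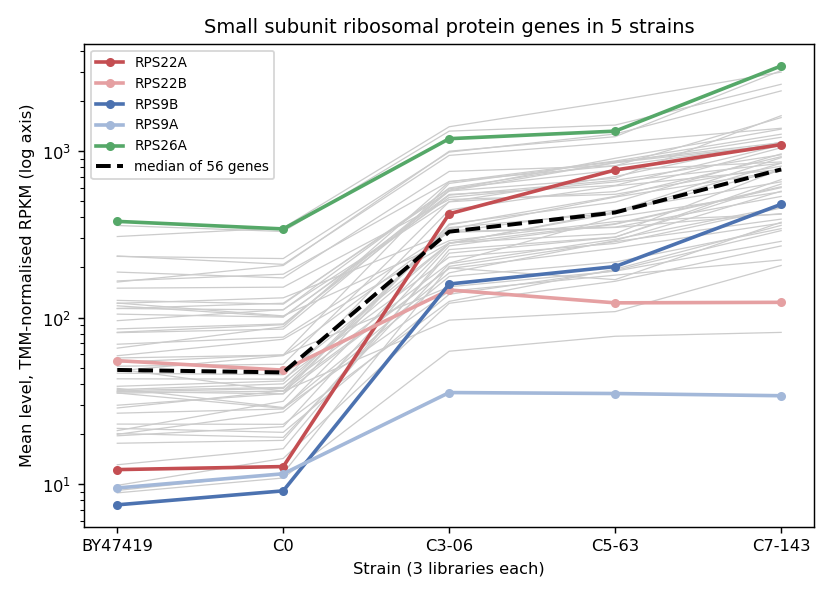
Mean level of each of the 56 small subunit genes (grey lines, 3 libraries per strain) in RPKM with TMM-scaled library sizes, on a log axis, across the 5 strains. The median (dashed) stood at 776 in C7-143 and 46.8 in C0, and RPS22A and RPS22B, like RPS9A and RPS9B, change order between C0 and C3-06.

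All 56 genes rose in C7-143 compared with C0 (edgeR quasi-likelihood test over 5814 tested genes, Benjamini-Hochberg adjusted p below 0.05), where 42.7% of all tested genes rose. The median log2 fold change of the 56 was 3.55, that of all tested genes -0.02, and the highest adjusted p among the 56 was 5.99e-08 by edgeR. The changes spread widely, between 1.35 and 6.43, so the genes did not rise by a common factor. The call held for all 56 in each alternative tried.

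The head of the subunit holds the proteins that guide messenger RNA and transfer RNA on their way through the ribosome. Its 22 genes all rose in C7-143 compared with C0 (edgeR, background 42.7% of tested genes). Their log2 fold change had a median of 3.43 and a range of 1.68 to 5.20. RPS18B, one of the genes for a head protein that bridges to the large subunit, had 6171, 6781 and 4851 reads in C7-143, against 118, 106 and 174 in C0. Its partner RPS18A had 7645, 7921 and 5855 reads in C7-143, against 917, 1104 and 1292 in C0. Both copies were higher in every C7-143 library than in any C0 library, RPS18B by the larger factor. RPS31 had 30276, 31519 and 21963 reads in C7-143, against 1373, 1648 and 1611 in C0, a log2 fold change of 3.89 ± 0.13 (SE). RPS25B, for a head protein best known for its use by viral internal ribosome entry sites, changed least in the head. It had 2795, 2981 and 2455 reads in C7-143, against 534, 751 and 842 in C0, a log2 fold change of 1.68 ± 0.10 (SE, edgeR with Benjamini-Hochberg adjusted p = 5.78e-11).

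The body and platform hold the other 34 genes, among them those for the decoding centre protein Rps23 and for Rps6, a phosphorylation target of the TORC1 pathway. All 34 rose in C7-143 compared with C0 (edgeR, background 42.7% of tested genes). The changes were 1.35 to 6.43 on the log2 scale, with a median of 3.71. The largest change of all 56 genes was that of RPS22A (YJL190C), one of the 2 genes for a protein of the central domain. RPS22A had 8930, 9651 and 7136 reads in C7-143, against 90, 61 and 93 in C0. That is a log2 fold change of 6.43 ± 0.21 (SE) or 86.1-fold, with an adjusted p of 1.95e-13 in edgeR after Benjamini-Hochberg adjustment. The smallest change was that of its partner RPS22B (YLR367W), with 916, 959 and 1020 reads in C7-143, against 282, 307 and 344 in C0. RPS22B rose by 1.35 ± 0.13 on the log2 scale (SE, 2.55-fold, edgeR with Benjamini-Hochberg adjusted p = 5.99e-08).

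The RPS9 genes, for a body protein near the mRNA entry that is known for its part in decoding accuracy, repeated this contrast. RPS9B (YBR189W) had 6527, 6399 and 3956 reads in C7-143, against 83, 74 and 106 in C0, a log2 fold change of 5.72 ± 0.24 (SE, edgeR with Benjamini-Hochberg adjusted p = 4.06e-12). RPS9A (YPL081W) had 372, 435 and 397 reads in C7-143, against 97, 97 and 144 in C0, a log2 fold change of 1.55 ± 0.13 (SE, edgeR with Benjamini-Hochberg adjusted p = 5.78e-09). RPS1B, one of the genes for a platform protein, came next. It had 10300, 11306 and 7546 reads in C7-143, against 188, 205 and 222 in C0, a log2 fold change of 5.28 ± 0.19 (SE, edgeR with Benjamini-Hochberg adjusted p = 3.29e-13). C7-143 replicate 3 was the lowest C7-143 library for RPS22A, RPS9B and RPS1B, and still lay far above every C0 library.

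**Figure D2:**
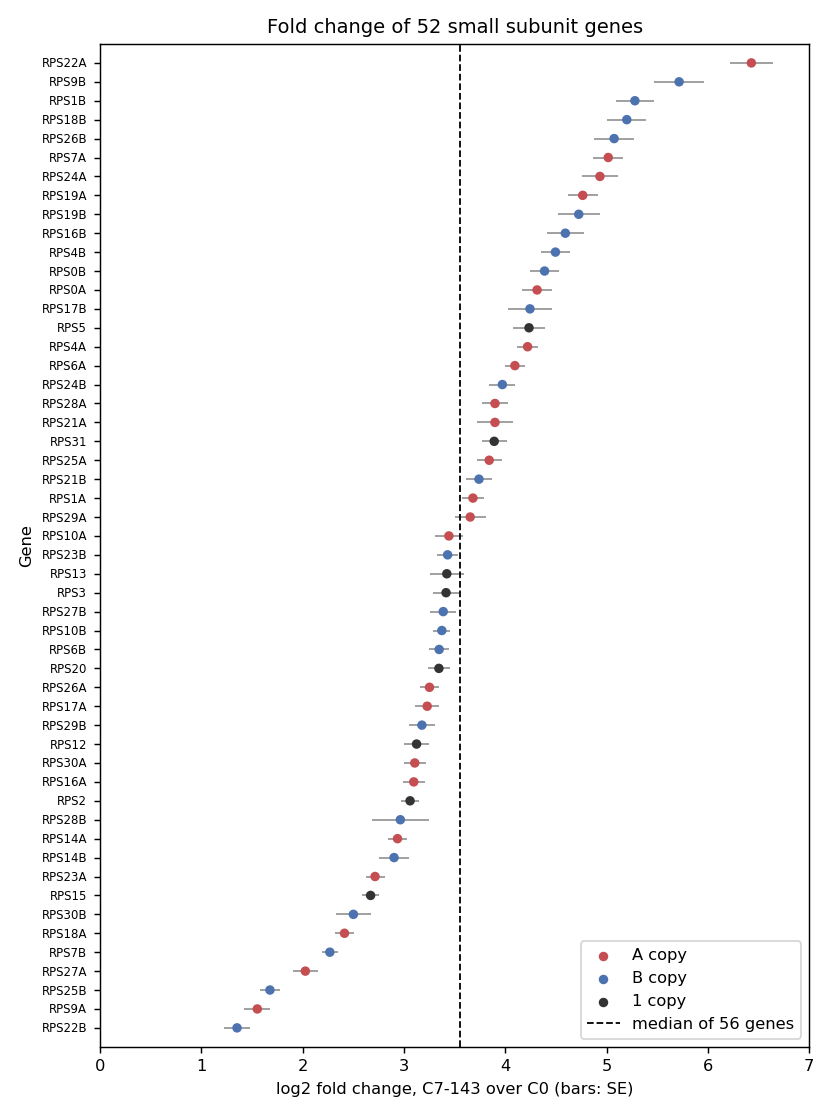
Log2 fold change of 52 of the 56 small subunit genes in C7-143 over C0 (points, with the SE of the edgeR fit as bars), coloured by A copy, B copy or single copy. RPS22A (6.43) and RPS22B (1.35) form both ends of the order, and the dashed median of all 56 lies at 3.55.

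Sorting the genes by other properties separated them little. The 36 genes with an annotated intron in their coding region had a median log2 fold change of 3.59, and the 20 without one 3.53. The 24 A copies had a median of 3.67, the 24 B copies 3.86 and the 8 single-copy genes 3.38. Among the single-copy genes the change ran between 2.67 and 4.23, a narrower range than that of the copies. The single-copy genes are fewer, however, and a range widens with the number of genes. The 76 genes of large subunit proteins (RPL), which are controlled by the same factors, all rose as well (edgeR, background 42.7% of tested genes). Their median log2 fold change was 3.67, with a range of 0.19 to 5.51. In C3-06 and in C5-63 compared with C0, 75 of the 76 rose (background 41.1% and 41.4%). The RPL share of reads was 2.74% ± 0.306 in C7-143, against 0.272% ± 0.0123 in C0 (SD, n = 3 each).

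The intermediate strains C3-06 and C5-63 were compared with the same C0 libraries as C7-143, so these comparisons are not independent. All 56 genes rose in C3-06 compared with C0 (edgeR, background 41.1% of tested genes), and their median log2 fold change was 2.47. All 56 also rose in C5-63 compared with C0 (edgeR, background 41.4%), with a median of 2.85. Without C3-06 replicate 1 the count in C3-06 was again 56, with a median of 2.59. RPS22A led in both strains, with 2492, 4599 and 3796 reads in C3-06 and 7365, 6308 and 7804 reads in C5-63. Its log2 fold change against C0 was 5.05 ± 0.21 in C3-06 and 5.92 ± 0.21 in C5-63 (SE). RPS26B and RPS9B came next, at 4.13 ± 0.20 and 4.13 ± 0.24 in C3-06, and at 4.63 ± 0.20 and 4.47 ± 0.24 in C5-63. The smallest rises in C3-06 were those of RPS25B at 1.30 ± 0.09, RPS7B at 1.36 ± 0.07 and RPS30B at 1.41 ± 0.18. In C5-63 they were those of RPS22B at 1.34 ± 0.13, RPS25B at 1.40 ± 0.09 and RPS30B at 1.58 ± 0.18. RPS22B itself stood 1.60 ± 0.13 above C0 in C3-06.

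From one evolved strain to the next the differences were smaller and fell on fewer genes. In C5-63 compared with C3-06, 33 of the 56 genes rose (edgeR, background 19.8%), and the median log2 fold change was 0.35. By edgeR 0 genes fell in that comparison (background 21%), also at an unadjusted p below 0.05, and DESeq2 and limma-voom called 0 lower too. Without C3-06 replicate 1 the count was 23, beside 821 of all 5817 genes tested in that fit, and the median of the 56 was 0.26. The largest rises were those of RPS21A, for a protein that sits next to Rps0, at 0.92 ± 0.15, RPS22A at 0.87 ± 0.16 and RPS0A at 0.64 ± 0.13 (SE). The smallest called rises were those of RPS23A at 0.25 ± 0.09, RPS31 at 0.29 ± 0.11 and RPS10B at 0.30 ± 0.07, and the calls of RPS23A and RPS31 were lost without C3-06 replicate 1. RPS22B had 963, 1279 and 1164 reads in C5-63, against 1250, 1235 and 1266 in C3-06, which overlap. Its log2 fold change of -0.26 ± 0.12 did not pass the test (edgeR with Benjamini-Hochberg adjusted p = 0.106), but the adjusted p was 0.0192 without C5-63 replicate 2.

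In C7-143 compared with C5-63, 50 of the 56 genes rose (edgeR, background 25%), and the median log2 fold change was 0.65. With library totals alone as the scale the count was 39. On that scale 714 of all 5814 tested genes rose, against 1451 with TMM, and the median over all tested genes was -0.175. The largest rises were those of RPS31 at 1.32 ± 0.11, RPS26A at 1.30 ± 0.09 and RPS27B at 1.28 ± 0.11 (SE), which had lain below the median change in C5-63 over C3-06. The C5-63 libraries enter both comparisons with opposite sign, so the comparisons are not independent. RPS26A had 25898, 24784 and 19220 reads in C7-143, against 11219, 10749 and 11623 in C5-63, with no overlap. The smallest called rises were those of RPS25B at 0.28 ± 0.09, RPS23A at 0.29 ± 0.09 and RPS4A at 0.33 ± 0.09. RPS25B, RPS23A and RPS4A lost their calls with library totals alone, and RPS25B also without any of 4 single libraries, namely C5-63 replicate 2 or 3 and C7-143 replicate 1 or 2. RPS23A lost its call without C7-143 replicate 2. RPS22A rose by 0.51 ± 0.15 on the log2 scale, a call lost without C5-63 replicate 2 or C7-143 replicate 2. RPS22B had a log2 fold change of 0.01 ± 0.12 that did not pass the test. Of all tested genes, 19.8% rose in C5-63 over C3-06 and 25% in C7-143 over C5-63. The shares that rose in both, in only 1 or in neither were not counted. The counts that follow thus have no background and do not set these genes apart from others. Of the 56 genes, 31 passed the test in both of these steps. Another 19 passed it in C7-143 over C5-63 but not in C5-63 over C3-06. RPS27A was among those that passed it in C5-63 over C3-06 but not in C7-143 over C5-63. RPS9A, RPS14B, RPS22B and RPS28B passed it in neither step. RPS9A had 397, 485 and 496 reads in C3-06, 458, 446 and 576 in C5-63 and 372, 435 and 397 in C7-143, so that C7-143 and C3-06 overlapped for this gene.

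Few small subunit genes were called different between C0 and BY47419, the strain without the β-carotene genes. In all, 4 of the 56 genes rose in C0 compared with BY47419 (edgeR, background 12.2% of tested genes) and 0 fell (background 18%), and the median log2 fold change was 0.07. At an unadjusted p below 0.05, 6 genes were higher and 3 lower by edgeR. DESeq2 called 4 higher and 1 lower, and limma-voom 2 higher and 0 lower. With library totals alone as the scale, 9 of the 56 genes were called higher, beside 1279 of all 5814 tested genes. The median was then 0.22, where the median of all tested genes was 0.13. With TMM scaling and with library totals alone, the share of members called higher by edgeR lies below the share of all tested genes. The 4 genes were RPS24A at 0.57 ± 0.19, RPS25A at 0.42 ± 0.12, RPS6B at 0.34 ± 0.10 and RPS31 at 0.33 ± 0.11 (log2 fold change ± SE, edgeR with Benjamini-Hochberg adjusted p = 0.0371, 0.0189, 0.0241 and 0.0404). RPS24A had 189, 192 and 250 reads in C0, against 90, 195 and 117 in BY47419, so the groups overlapped. RPS25A had 431, 453 and 531 reads in C0, against 263, 447 and 289 in BY47419, which overlap as well. These calls were lost when some single libraries were left out. The count of 4 became 0 without BY47419 replicate 3 or without C0 replicate 3, and 1 without BY47419 replicate 1 or without C0 replicate 2. Over all genes the count called higher moved too, from 712 to 389, 487, 377 and 392 in these fits, in the same order. It was 640 without C0 replicate 1 and 976 without BY47419 replicate 2. RPS22A at 0.06 ± 0.25 and RPS22B at -0.18 ± 0.14 did not pass the test, and RPS22A lay between -0.094 and 0.24 when single libraries were left out.

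The A and B copies of a pair encode nearly the same protein, and reads were counted by a method that the sources used here do not give. Reads of identical stretches may therefore have been split or dropped. Coding sequences of the pairs were 84.3% (RPS27) to 99.2% (RPS6) identical in the R64 reference. Windows of 100 bases shared with another coding sequence were found in 4 pairs, among them RPS4 with 13.2% of windows, RPS6 with 53.4% and RPS24 with 17.2%, so the ratios of these 4 pairs are uncertain. The other 20 pairs had no such window. For RPS22 and RPS9, whose copies diverged most between strains, the first 120 coding bases (R64, RefSeq) are given to show what tells the copies apart. RPS22A lies at chrX:74910-75302 on the minus strand without an annotated coding intron, and RPS22B at chrXII:856442-857317 on the plus strand with 1 coding intron. Introns outside the coding region were not counted. RPS9A lies at chrXVI:404950-406044 and RPS9B at chrII:604508-605508, both on the plus strand with 1 coding intron. Capitals mark the bases that differ between the copies, 15 in RPS22 and 7 in RPS9.
RPS22A: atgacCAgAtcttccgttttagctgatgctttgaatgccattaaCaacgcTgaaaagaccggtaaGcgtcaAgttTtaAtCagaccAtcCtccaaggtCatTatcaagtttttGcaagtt
RPS22B: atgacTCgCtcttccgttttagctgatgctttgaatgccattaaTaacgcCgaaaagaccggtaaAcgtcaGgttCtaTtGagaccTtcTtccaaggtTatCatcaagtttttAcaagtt
RPS9A: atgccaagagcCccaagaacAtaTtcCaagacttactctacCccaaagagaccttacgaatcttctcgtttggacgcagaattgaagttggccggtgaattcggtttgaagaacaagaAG
RPS9B: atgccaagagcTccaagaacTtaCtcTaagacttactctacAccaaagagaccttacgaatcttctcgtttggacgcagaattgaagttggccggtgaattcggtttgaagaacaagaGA
Over the whole coding sequence the RPS22 copies were 89.6% and the RPS9 copies 90.9% identical.

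The ratio of the A to the B copy within a library needs no scaling between libraries. It was fitted with limma for all 61 gene pairs of the table whose names differ only in a final A or B. In C7-143 compared with C0 the ratio shifted in 19 of the 24 small subunit pairs, 8 towards A and 11 towards B (limma, Benjamini-Hochberg adjusted p below 0.05). Of all 61 pairs, 49.2% shifted towards A, 39.3% towards B and 88.5% either way, so the small subunit pairs did not stand above this background. Of the 19 called pairs, 15 shared no window of 100 bases, but RPS7, RPS9 and RPS18 among these did share windows of 50 bases.

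RPS22 shifted most. The A copy held 89.7% ± 1.93 of the reads of the pair in C7-143, against 20.7% ± 3.84 in C0 (SD, n = 3 each), a change of 5.09 ± 0.27 in the log2 ratio (SE, limma with Benjamini-Hochberg adjusted p = 1.01e-10). RPS7, a pair for a eukaryote-specific protein on the solvent side, had 75.9% ± 2.48 of its reads in the A copy in C7-143, against 32.1% ± 2.94 in C0. Its log2 ratio shifted by 2.74 ± 0.12 (SE, limma with Benjamini-Hochberg adjusted p = 5.63e-12). RPS25 had 74.9% ± 1.10 in the A copy in C7-143, against 40.3% ± 3.80 in C0, a shift of 2.15 ± 0.12 (SE, limma with Benjamini-Hochberg adjusted p = 1.07e-10). In these 3 pairs the copy with fewer reads in C0 was the copy with more reads in C7-143.

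Towards B the leading pair was RPS9, with 6.96% ± 1.93 of its reads in the A copy in C7-143, against 56.1% ± 1.94 in C0, and a log2 ratio lower by 4.13 (change -4.13 ± 0.21, SE, limma with Benjamini-Hochberg adjusted p = 6.54e-11). RPS18 had 54.6% ± 0.730 in the A copy in C7-143, against 89.3% ± 1.68 in C0, a change of -2.80 ± 0.15 (SE, limma with Benjamini-Hochberg adjusted p = 6.54e-11). RPS26 had 89.2% ± 1.32 in the A copy in C7-143, against 96.7% ± 0.50 in C0, a change of -1.82 ± 0.24 (SE, limma with Benjamini-Hochberg adjusted p = 3.33e-06). RPS26B, for example, had 2648, 3300 and 2457 reads in C7-143, against 72, 63 and 69 in C0, while RPS26A had 25898, 24784 and 19220 in C7-143, against 1786, 2073 and 2168 in C0. RPS26A thus stayed the main copy in both strains, with RPS26B gaining on it.

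**Figure D3:**
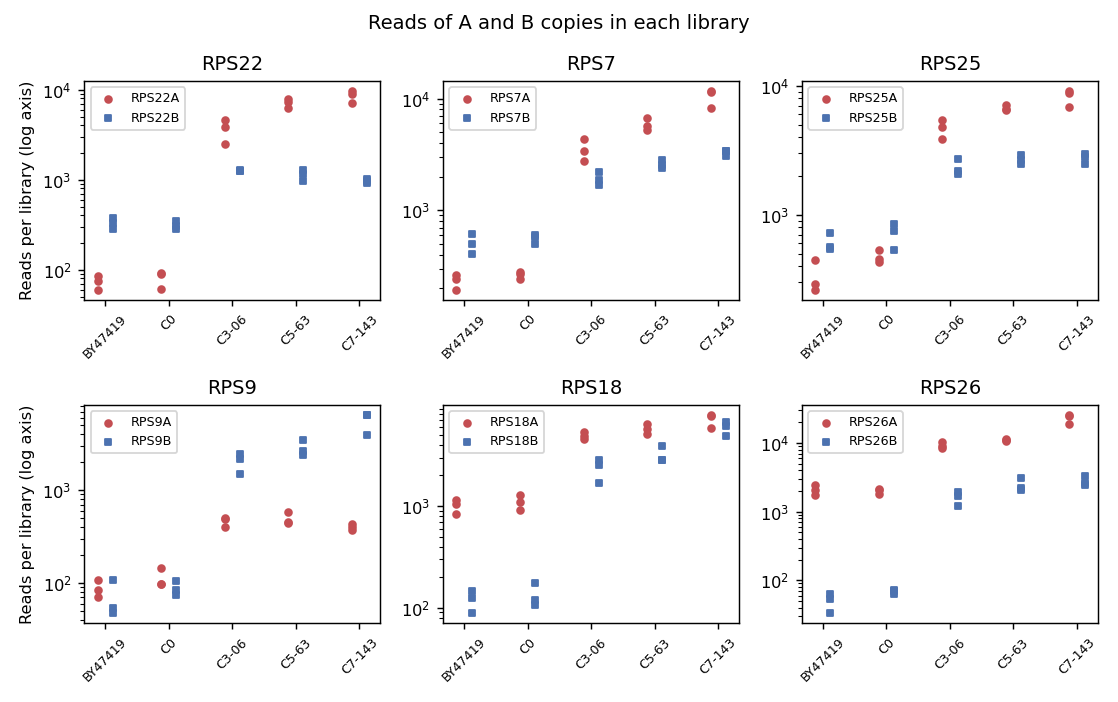
Reads of the A copy (red circles) and B copy (blue squares) in each of the 3 libraries of the 5 strains, on log axes, for the 3 pairs whose ratio shifted most towards A (top row) and towards B (bottom row) in C7-143 over C0. RPS22A had 7136 to 9651 reads in C7-143 and 61 to 93 in C0, while RPS22B had 916 to 1020 in C7-143 and 282 to 344 in C0.

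The copy with more reads per length differed between C7-143 and C0 in 6 pairs, RPS4, RPS7, RPS9, RPS22, RPS25 and RPS27. In each of the 6, all 3 libraries of C7-143 fell on one side and all 3 libraries of C0 on the other. RPS27, for a zinc-binding protein of the platform region, had 35.0% ± 1.67 of reads in the A copy in C7-143, against 58.0% ± 3.23 in C0. RPS4 is among the pairs with shared windows, and its shares lay close together, at 47.9% ± 1.58 in C7-143, against 52.5% ± 1.40 in C0. For the other 18 pairs the main copy was the same in both strains. RPS14A held 96.8% ± 0.244 of the pair in C7-143, against 96.8% ± 0.791 in C0, and its ratio change of 0.01 ± 0.18 did not pass the test. The ratios of RPS0, RPS10, RPS19 and RPS21 did not pass it either, with changes between -0.07 and 0.17. The median share of the main copy over the 24 pairs was 70.0% in C7-143, against 68.2% in C0. Taking the order of copies from BY47419, which is not in this comparison, the copy with fewer reads there gained share in 15 of the 19 called pairs and lost share in 4. RPS6, RPS28 and RPS30 were among the 4. In the other 37 A and B pairs of the table, the copy with fewer reads in BY47419 gained share in 27 of 35 called pairs and lost it in 8. Among the called small subunit pairs, the order of copies was not the same in all 3 BY47419 libraries for RPS9 and RPS24, and without such pairs the counts were 13 of 17 in the small subunit pairs and 25 of 31 in the others.

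**Figure D4:**
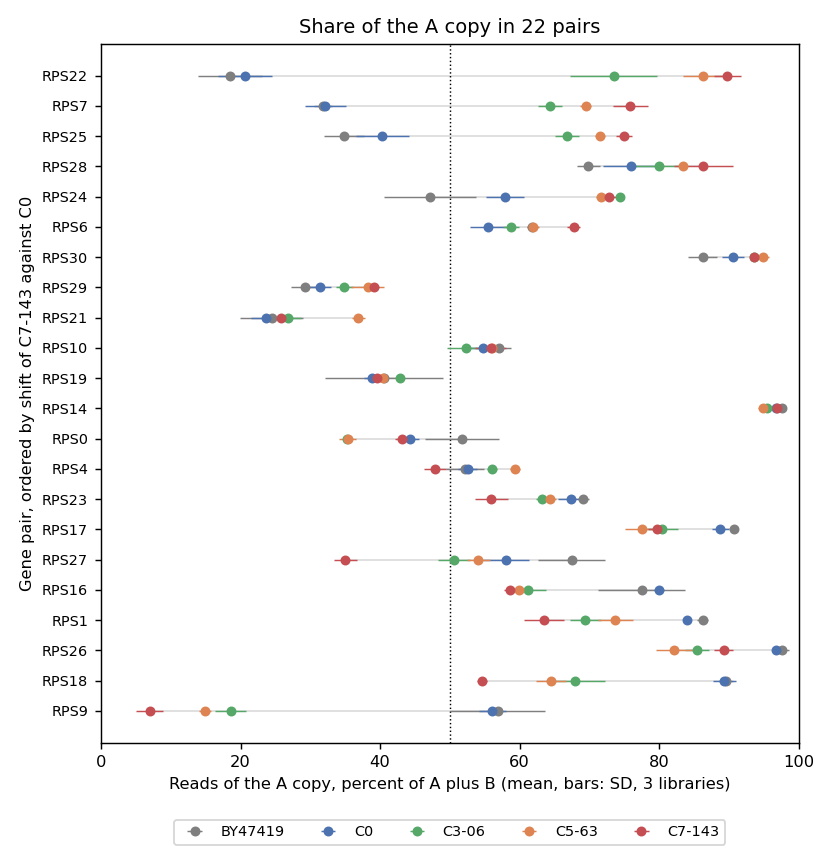
Reads of the A copy as a percentage of the reads of both copies for 22 of the 24 small subunit pairs in 5 strains (mean, bars show the SD over 3 libraries), ordered by the shift of C7-143 against C0. RPS22, RPS7 and RPS25 at the top and RPS27 and RPS9 lower down cross the dotted 50% line between C0 and C7-143.

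The shifts of the main pairs were already present in C3-06. Compared with C0, the ratio shifted in 17 of 24 pairs in C3-06, 5 towards A and 12 towards B (limma, background 44.3% towards A, 42.6% towards B and 86.9% either way over all 61 pairs). In C5-63 compared with C0 it shifted in 20 pairs, 10 towards A and 10 towards B (limma, background 52.5% towards A, 39.3% towards B and 91.8% either way). RPS22 led towards A, with changes of 3.44 ± 0.27 in C3-06 and 4.61 ± 0.27 in C5-63, followed by RPS7 with 1.93 ± 0.12 in C3-06 and 2.26 ± 0.12 in C5-63 (log2 ratio ± SE). RPS9 led towards B, with -2.48 ± 0.21 in C3-06 and -2.86 ± 0.21 in C5-63, beside RPS26 with -2.31 ± 0.24 in C3-06 and -2.66 ± 0.24 in C5-63. The A copy of RPS22 held 18.5% ± 4.63 of reads in BY47419, 20.7% ± 3.84 in C0, 73.5% ± 6.26 in C3-06, 86.2% ± 2.74 in C5-63 and 89.7% ± 1.93 in C7-143. The A copy of RPS9 held 56.8% ± 6.82 in BY47419, 56.1% ± 1.94 in C0, 18.6% ± 2.24 in C3-06, 14.9% ± 0.832 in C5-63 and 6.96% ± 1.93 in C7-143.

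Between neighbouring evolved strains fewer pairs moved. In C5-63 compared with C3-06, RPS22 (1.17 ± 0.27) and RPS21 (0.68 ± 0.15) shifted towards A and 0 towards B (limma, background 11.5% and 3.28%), with 6 towards A and 0 towards B at an unadjusted p below 0.05. In C7-143 compared with C5-63, 5 pairs shifted towards A and 8 towards B (limma, background 29.5% and 24.6%). The main shifts towards A were those of RPS26 (0.84 ± 0.24) and RPS14 (0.73 ± 0.18), and those towards B were RPS9 (-1.26 ± 0.21) and RPS27 (-1.13 ± 0.15). Not every course ran one way. RPS26A held 96.7% ± 0.50 of its pair in C0, 82.2% ± 2.69 in C5-63 and 89.2% ± 1.32 in C7-143. RPS21A held 23.6% ± 2.12 in C0, 26.8% ± 1.97 in C3-06, 36.9% ± 0.930 in C5-63 and 25.9% ± 0.524 in C7-143.

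In C0 compared with BY47419, 2 pairs shifted towards A and 3 towards B (limma, background 8.2% and 11.5%). A fit of only these 2 strains called 0 in either direction, as did an adjusted p below 0.01. The named shifts were those of RPS24 (0.62 ± 0.15) and RPS30 (0.61 ± 0.16) towards A, and of RPS27 (-0.59 ± 0.15) and RPS0 (-0.43 ± 0.12) towards B. The count towards A was 1 without BY47419 replicate 3 and 1 without C0 replicate 1, and the count towards B was 1 without C0 replicate 1. RPS22 (0.21 ± 0.27), RPS7 (0.02 ± 0.12) and RPS9 (-0.05 ± 0.21), the pairs that shifted most in the evolved strains, did not pass the test here.

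Upstream sequence was searched because many ribosomal protein promoters carry sites of the factor Rap1. The 500 bases before the coding start (R64, RefSeq, both strands) were searched for CCNTACAT and CANCCNNACA, a pair of spellings of that site which can overlap, and for the Abf1 motif. The spellings were chosen after the values of the pairs had been seen. CCNTACAT was found upstream of 25 of the 56 genes (44.6%), against 5.59% of 5977 annotated genes. CANCCNNACA was found upstream of 25 genes (44.6%), against 6.02%. In all, 18 genes held both, with an overlap in 16, and 24 held neither. The Abf1 motif was found upstream of 6 genes (10.7%), against 18.2%. Genes with either of the first 2 spellings had a median log2 fold change of 4.06 in C7-143 over C0, and the 24 genes with neither had 3.30. Windows of 60 bases around a match are given for the pairs that shifted most and had one, on the strand of the gene and with the match in capitals.
RPS22A, chrX:75535-75594, minus strand: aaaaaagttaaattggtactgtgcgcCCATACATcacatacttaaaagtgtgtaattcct
RPS9B, chrII:604263-604322, plus strand: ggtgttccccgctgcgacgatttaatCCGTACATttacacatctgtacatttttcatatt
RPS18B, chrXIII:224165-224224, minus strand: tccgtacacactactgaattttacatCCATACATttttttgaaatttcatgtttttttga
RPS18A, chrIV:1359574-1359633, plus strand: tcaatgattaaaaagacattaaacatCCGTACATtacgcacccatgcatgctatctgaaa
RPS7A, chrXV:505294-505353, plus strand: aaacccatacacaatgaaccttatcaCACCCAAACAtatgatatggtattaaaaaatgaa
RPS7B, chrXIV:444580-444639, minus strand: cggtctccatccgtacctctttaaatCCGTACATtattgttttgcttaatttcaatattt
RPS22B and RPS9A had no match to either spelling in their 500 bases, while RPS7 and RPS18 had one at each copy.

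Of the 24 pairs, 9 had a match to CCNTACAT or CANCCNNACA at 1 copy only, 10 at both copies and 5 at neither. In 8 of the 9 the ratio shifted towards the copy with the match in C7-143 compared with C0. Among these were RPS22 and RPS24 towards A and RPS1, RPS9, RPS23 and RPS27 towards B. The other was RPS0, whose ratio did not pass the test. RPS24 is among the pairs with shared windows, and so is another of the 8 shifted pairs, so both of these ratios are uncertain. Of the 37 other A and B pairs of the table, 12 had a match at 1 copy only, with the shift towards that copy in 5, away from it in 6 and not called in 1. With CCNTACAT alone, 8 small subunit pairs had a match at 1 copy, of which 4 shifted towards it, 1 away and 3 were not called. With CANCCNNACA alone, 8 pairs had one, of which 6 shifted towards it and 2 were not called. A narrower spelling, CACCCNNACA, was at 1 copy of 7 pairs, of which 6 shifted towards it and 1 was not called. RPS25 and RPS26, which also shifted strongly, had a match at neither copy. A match describes these letters only, and binding of Rap1 was not measured.

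Adding the copies gives the message for each of the 32 proteins, of which the subunit holds equal numbers. In C7-143 the summed level per length ran from 374 ± 88.2 for RPS13 to 3634 ± 465 for RPS26, and in C0 from 20.6 ± 3.41 for RPS9 to 382 ± 14.95 for RPS30. The SD over the 32 proteins of the log2 level was 0.751, 0.750 and 0.779 in the C7-143 libraries, against 0.999, 1.07 and 0.993 in the C0 libraries. The libraries did not overlap, and the mean was 0.26 lower in C7-143. The size of this difference depended on how it was computed, with -0.13 (C7-143 minus C0) for reads not divided by length and -0.40 over only the proteins with 2 genes. An exact two-sided permutation test over the 3 C7-143 and 3 C0 libraries gave p = 0.10, the smallest this design allows. The mean SD was 1.07 in BY47419, 1.02 in C0, 0.742 in C3-06, 0.786 in C5-63 and 0.760 in C7-143, with C3-06 close to C7-143. RPS9 shows the change. Its summed level was 513 ± 114 in C7-143, against 20.6 ± 3.41 in C0, which moved it nearer to the other proteins.

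**Figure D5:**
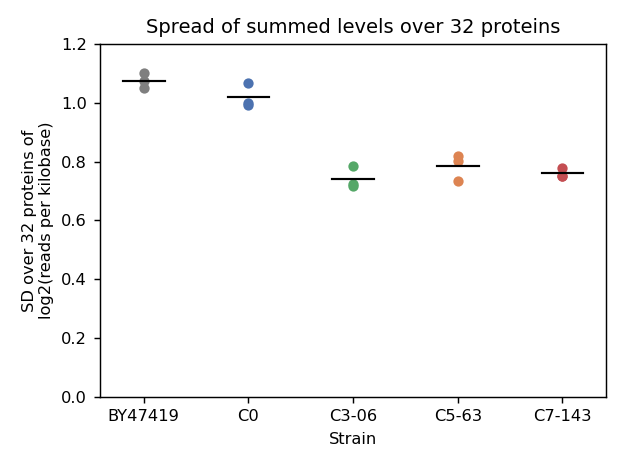
SD over the 32 small subunit proteins of the log2 of summed reads per kilobase (A plus B copy) in each library (points) of the 5 strains, with the strain mean as a line. The 3 C7-143 libraries lie at 0.750 to 0.779 and the 3 C0 libraries at 0.993 to 1.07, a difference in means of -0.26 that was -0.13 for reads not divided by length.

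Messages for proteins that bind the finished subunit, STM1 and ASC1 in the list used here, were also higher in C7-143 than in C0. STM1, for a protein that clamps idle ribosomes, rose by 4.70 ± 0.13 in C7-143 compared with C0 (log2 ± SE, edgeR with Benjamini-Hochberg adjusted p = 3.83e-14). ASC1, the homologue of RACK1 on the head of the subunit, rose by 4.09 ± 0.14 (edgeR with Benjamini-Hochberg adjusted p = 1.68e-13). Of 27 genes for assembly of the small subunit precursor, 20 rose and 4 fell in C7-143 compared with C0, where 42.7% of all tested genes rose and 43.3% fell, and their median log2 fold change was 0.93, below that of the ribosomal protein genes. The named members were PRP43, an RNA helicase, at 3.10 ± 0.14, EMG1, a methyltransferase of the 18S RNA, at 3.06 ± 0.11, UTP22, a member of the early processome, at 2.33 ± 0.12, and RIO1, a late-acting kinase, at -3.04 ± 0.11 (SE). Dedicated chaperones of small subunit proteins were picked out of that list after their values were seen. TSR2, the chaperone of Rps26, rose by 3.54 ± 0.18, FAP7, which binds Rps14, by 1.67 ± 0.12, TSR4, the chaperone of Rps2, by 1.17 ± 0.12, and YAR1, the chaperone of Rps3, by 0.60 ± 0.11. LTV1, a factor that places head proteins, fell by 0.43 on the log2 scale. PNO1 and NOB1, which act in the last cleavage of the 18S RNA, fell by 1.56 and 0.56.

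Of 15 genes for factors and kinases that control ribosomal protein genes, 3 rose and 9 fell in C7-143 compared with C0, where 42.7% of all tested genes rose and 43.3% fell, and their median log2 fold change was -0.28. SFP1, an activator, fell by 1.25, CRF1, a corepressor, by 1.34, TOR1, a kinase of TORC1, by 1.52, and TPK2, a catalytic subunit of protein kinase A, by 1.62 (edgeR with Benjamini-Hochberg adjusted p between 8.36e-11 and 4.33e-10). The 3 that rose were RAP1 at 0.74 ± 0.07, ABF1 at 0.43 ± 0.09 and TPK3, another catalytic subunit of protein kinase A, at 1.16 ± 0.08 (SE). FHL1 at -0.01 ± 0.08 and IFH1, for the coactivator of Fhl1, at 0.23 ± 0.11 did not pass the test. These are message levels, and the activity of the proteins was not measured.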

How the data were processed

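Reads were aligned with HISAT2, per the submitters' processing notes, which give no version. The program that counted reads, whether it used strand, and the reference build are not stated in the sources at hand. The deposited table holds for every gene and library a raw count of reads and an FPKM made by the authors. The counts entered all tests unchanged, and the deposited FPKM values were not used. Coordinates are those of R64, in whose annotation 5977 of the 5980 gene identifiers were found, 5972 of them with equal coordinates. Lengths are coding lengths (5933 are multiples of 3).

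Genes were filtered with filterByExpr (minimum count 10, minimum total 15), which left 5814, all 56 small subunit genes among them. Libraries were scaled by TMM and tested over all 15 libraries with edgeR 4.0.16 (robust quasi-likelihood test, R 4.3.3). Ratios, log2 of (count A + 0.5) over (count B + 0.5), were fitted with limma 3.58.1 over 61 pairs. Both used Benjamini-Hochberg adjustment and a threshold of 0.05, and were tested on simulated data. Levels are RPKM computed from the counts with TMM-scaled totals. Sequences came from RefSeq (R64). DESeq2 1.42.0, limma-voom, other scalings and filters, a replicate block and leaving out single libraries were alternatives. Counting error is small at the depth of the highest genes, but genes with under 100 reads per library, such as RPS22A in C0, carry more of it.

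Genes named with test values were the 3 largest and 3 smallest called changes per comparison, RPS22A and RPS22B throughout, the 3 largest called ratio shifts each way in C7-143 against C0 and up to 2 each way elsewhere, the 3 highest and lowest levels in C7-143 and C0, and up to 4 genes per list by adjusted p. Others are named where a count of 5 or fewer falls on them or as examples chosen after their values were seen. The genes and lists were chosen with earlier results of these data known. Replicate numbers paired the libraries of C0 and BY47419 only by their deviations from the strain means (r of 0.116 to 0.321 for equal numbers and of -0.268 to 0.132 for unequal ones). The other comparisons did not show this. Results by name for a few of the genes are not reported here.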

Additional observations from a re-analysis of the deposited data

How the results depend on the processing

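All 56 genes stayed higher in C3-06, C5-63 and C7-143 compared with C0 under each alternative, with the median of C7-143 between 3.50 and 3.68. C0 compared with BY47419 was the comparison that moved most. There, library totals alone gave 9 genes higher, beside 1279 of all 5814 tested genes, and a median of 0.22. DESeq2 gave 1 lower, limma-voom 2 higher, and a fit of only these 2 strains 1 lower and 0 pairs shifted towards A or B. At an adjusted p below 0.01 there were 0 genes higher and 0 pairs towards A or B. Leaving out single libraries gave 0 to 4 genes higher, 0 to 2 lower, a median of 0.0057 to 0.14, 1 to 3 pairs towards A and 1 to 4 towards B. Library totals alone moved the median of all genes by up to 0.30, and gave medians of 2.68 for C3-06 and 3.16 for C5-63 over C0 and 0.45 for C5-63 over C3-06. With single libraries left out, the median was 2.85 to 2.95 for C5-63 over C0 and 0.26 to 0.44 for C5-63 over C3-06, with 0 to 1 genes lower. A fit of only C5-63 and C3-06 gave 4 pairs towards A. RPS22B in C7-143 over C5-63 was -0.15 with library totals alone and -0.077 to 0.15 without single libraries, and RPS22A in C0 over BY47419 -0.094 to 0.24. The difference in spread over the proteins was -0.13 without division by length, -0.40 over proteins with 2 genes, and -0.27 to -0.24 without single libraries. The cause of these moves was not tested. With the replicate number as a block, C0 over BY47419 again had 4 genes higher, 2 pairs towards A and 3 towards B, C5-63 over C3-06 had 34 genes higher and C7-143 over C5-63 had 9 pairs towards B, and the block moved no count of calls by more than 1.5 times.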
